A study of Mus musculus with 2 samples.

Results

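The laminin chains examined here are 9 mouse genes, Lama1, Lama2, Lama3, Lama4, Lama5, Lamb1, Lamb2, Lamb3 and Lamc1, taken as every probe set annotated to 1 of these genes alone. They account for 17 of the 45101 probe sets and 9 of the 18193 genes on the array. Expression was measured in a pair of mouse endothelial cell lines with 1 Affymetrix array each. MS-1 derives from small vessels of the pancreas and was kept in DMEM with 5% fetal calf serum. SVEC4-10 derives from an axillary lymph node and was kept in DMEM with 10% fetal calf serum, so the cell line and the serum level cannot be told apart. Both lines had been immortalised with the SV40 large T antigen, were used up to passage 5 and were harvested at confluence without further treatment, and each served as the comparison for the other.

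Laminins are secreted proteins of the basement membrane, the thin sheet of matrix under endothelium and epithelium. Each molecule is a cross-shaped trimer of 1 alpha, 1 beta and 1 gamma chain wound together along a coiled coil. The beta and gamma chains are held inside the cell until an alpha chain joins them, and the alpha chain carries the globular end domains that bind integrins and dystroglycan on the cell surface. In blood vessels the usual alpha chains are those encoded by Lama4 and Lama5, joined to the products of Lamb1 or Lamb2 and Lamc1. Lama1 is best known from embryonic basement membranes, Lama2 from muscle and nerve, and Lama3 and Lamb3 from the laminin that anchors the epidermis.

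The main difference between the lines lay in Lama4 and Lamc1, both with lower signal in SVEC4-10, while Lama5, Lamb1 and Lamb2 were within 2-fold between the arrays. Lama4 signal was at least 64.4-fold higher in MS-1 and Lamc1 signal was 2.91-fold higher there. Of the 9 chains, 8 were above background on 1 or both arrays, as were 69.2% of all genes. Of these 8, 2 were higher in MS-1 by 2-fold or more and 0 in SVEC4-10, against 12% and 15% of all 12583 measured genes. The count of 0 rests on the background level, since Lama1 and Lama2 have only a lower bound: it was 1 with background at the 40th percentile of each array and 2 without a background floor. By 4-fold or more, 1 was higher in MS-1 and 0 in SVEC4-10, against 4.16% and 5.5%. With 1 array per line, differences were not checked in replicates and carry no p-value. Variation between cultures and the effect of each line's history are not covered by any error given here.

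Signals are the deposited intensities of single probe sets on a linear scale, and each log2 ratio sets SVEC4-10 over MS-1. Probes bind with different strength, so signals of different laminin probe sets are not set against each other. Background was set at 16.3 for the MS-1 array and 17.6 for the SVEC4-10 array. This is the 95th percentile of 129 probe sets whose genes encode receptors for odorants, pheromones and tastes or proteins of hair keratin. A signal under background was raised to it before the ratio was taken, so such a ratio gives the least size of the difference and its fold is written as "at least". The error of a log2 ratio was 0.48, from the spread between 2 probe sets of the same gene over 4813 genes. It leaves out differences from culture to culture and any error in scaling a whole array.

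Marker signals are summed only to set the same probe sets side by side on both arrays. The SVEC4-10 array carried little signal of genes that define endothelium. Of 12 endothelial markers, 11 were above background in MS-1 and 2 in SVEC4-10, and their summed signals (11 measured genes) were 25817 and 116. The endothelial label of SVEC4-10 was thus not matched by most of these markers. Emcn, Pecam1 and Nos3, 3 of these markers, had signals of 5568, 4777 and 4450 in MS-1 and 6.07, 1.27 and 10.2 in SVEC4-10. Of 9 fibroblast and mesenchymal markers, 0 were above background in MS-1 and 7 in SVEC4-10, with summed signals of 44.4 and 18967. Of 5 mesothelial markers, 2 and 5 were above background, with summed signals of 55.1 and 12461. In SVEC4-10, signals of these lists included Dcn (7363), Col1a1 (5694), Col1a2 (5071), Upk3b (6148), Upk1b (3693) and Msln (1311), although the log2 ratio was 0.39 at 1 of 3 probe sets of Col1a2. Of 7 smooth muscle and pericyte markers, 2 and 3 were above background, with summed signals (4 measured genes) of 73.0 and 10281, from Acta2 (48.6 and 6446) and Tagln (1.38 and 3801). Epithelial markers were mixed (6 and 4 of 9 above background, summed signals 448 and 233), and summed signals of leukocyte markers (3 and 0 of 6 on the array above background, 290.3 and 27.5 over 3 measured genes) and pancreas markers (2 and 3 of 6, 67.4 and 141 over 4 measured genes) were low. These marker differences move with the laminin differences below, and with 1 array per line they cannot be told apart. In such bulk RNA, fewer cells of a type and less RNA per cell cannot be told apart either.

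**Figure D1:**
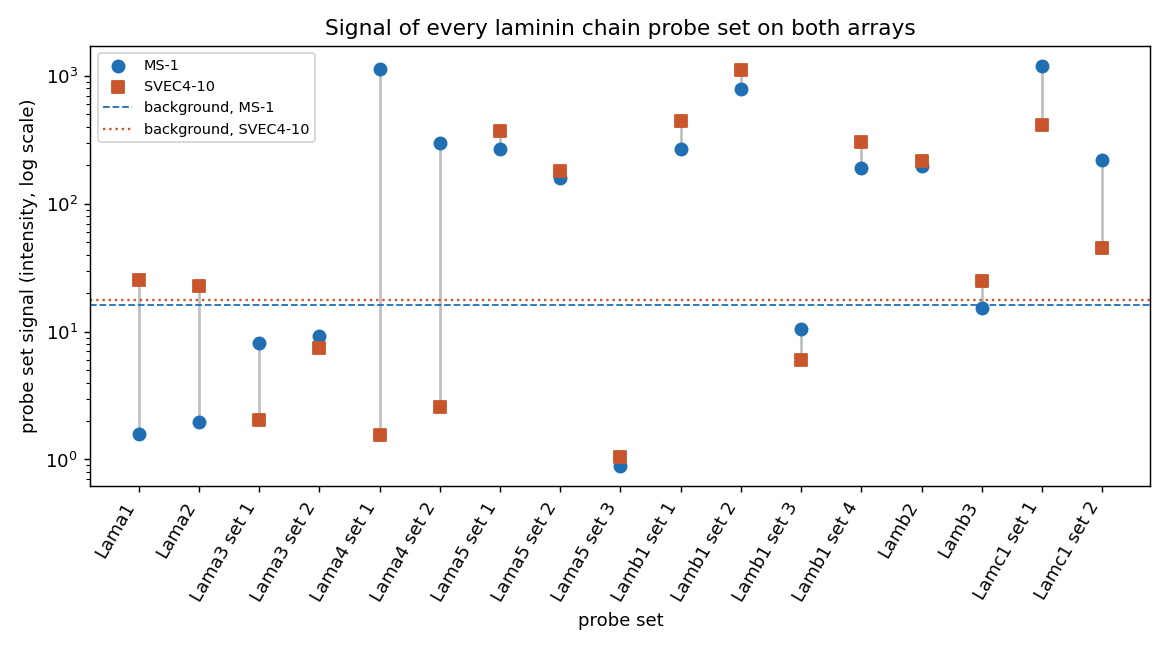
Signal (intensity, log scale) of each of the 17 laminin probe sets in MS-1 (circles) and SVEC4-10 (squares), with the background of each array as a horizontal line. Both Lama4 probe sets lie above 300 in MS-1 and under 3 in SVEC4-10, both Lamc1 probe sets are lower in SVEC4-10, and the measured Lama5, Lamb1 and Lamb2 probe sets lie close together.

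Among the alpha chains, Lama4 and Lama5 were above background in MS-1, and Lama5, Lama1 and Lama2 in SVEC4-10. Lama4 (chromosome 10, 38965515 to 39110188, GRCm38.p6) encodes an alpha chain that lacks the short arm of most other alpha chains and is made by vascular endothelium, and also by muscle and fat. Its first probe set had a signal of 1134 in MS-1 and 1.56 in SVEC4-10, a log2 ratio of -6.01 or lower. The second had signals of 302 and 2.57, a log2 ratio of -4.10 or lower, which is at least 17.1-fold. Both probe sets were far above background in MS-1 and far below it in SVEC4-10. Both ratios are lower bounds, so the size of the difference beyond 64.4-fold was not measured.

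Lama5 (chromosome 2, 180176373 to 180225904) encodes the longest of the alpha chains, which is found in the basement membranes of mature vessels and of most epithelia. Its probe set with the highest signal gave 268 in MS-1 and 372 in SVEC4-10, a log2 ratio of 0.47. A second probe set gave 160 and 181, a log2 ratio of 0.18. Both ratios were smaller than the error of 0.48, although the first exceeded the smaller error of 0.34 that the median deviation between probe sets gives. The remaining probe set was under background on both, with signals of 0.888 and 1.05. Scaling to the poly-A control transcripts that had been added to the RNA lowers every log2 ratio by 0.51 and gave -0.039 for Lama5, which turns its sign.

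Lama1 (chromosome 17, 67697127 to 67822645) encodes the alpha chain of the first basement membranes of the embryo. It had signals of 1.59 in MS-1 and 25.4 in SVEC4-10, at least 1.56-fold higher on the latter. Lama2 (chromosome 10, 26981285 to 27617191) encodes the alpha chain of muscle and peripheral nerve, whose loss in mice causes muscular dystrophy. It had signals of 1.97 and 22.8, at least 1.40-fold higher in SVEC4-10. With the poly-A scaling the lower bound of its log2 ratio was -0.030, which does not fix the direction. Both genes exceeded background in SVEC4-10 by a small margin and neither remained above it when background was doubled. Without the background floor their log2 ratios were 3.99 and 3.53, which rest on MS-1 signals under 2. Lama3 (chromosome 18, 12333417 to 12583013), the alpha chain of the epidermal anchoring laminin, was under background at both of its probe sets, with signals of 9.29 or less in MS-1 and 7.41 or less in SVEC4-10.

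**Figure D2:**
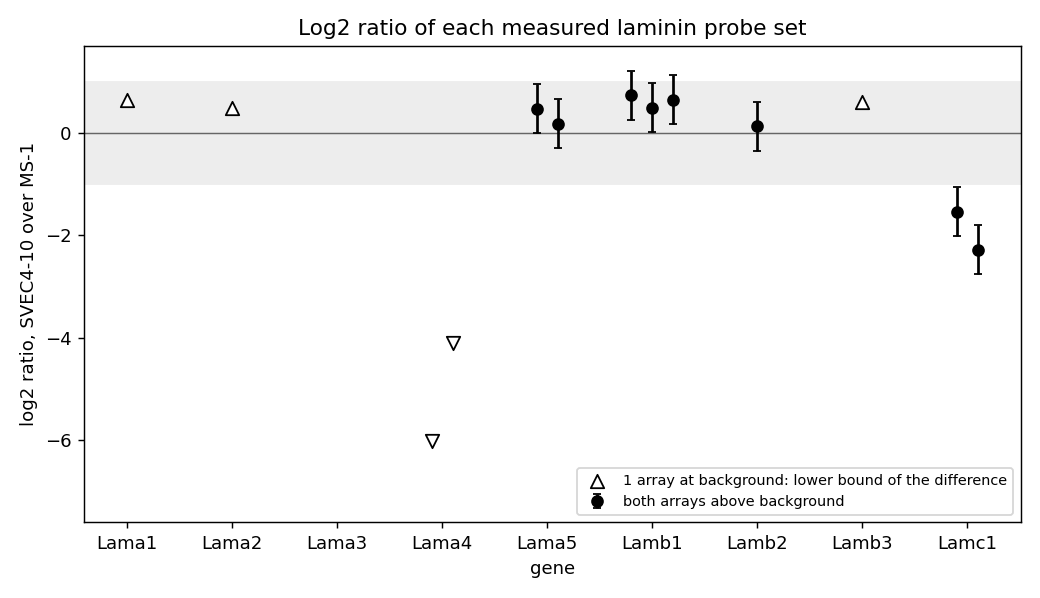
Log2 ratio (SVEC4-10 over MS-1) of each measured laminin probe set. Filled points are above background on both arrays with the error of 0.48 as bars, open triangles are lower bounds of the difference, and the grey band covers ratios under 2-fold, outside which lie Lama4 (-6.01 and -4.10) and Lamc1 (-1.54 and -2.28).

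Of the beta chains, Lamb1 and Lamb2 were above background on both arrays and Lamb3 in SVEC4-10. Lamb1 (chromosome 12, 31265146 to 31329644) encodes the most widely made beta chain. Its probe set that stands for the gene had signals of 268 in MS-1 and 447 in SVEC4-10, a log2 ratio of 0.74. The other measured probe sets gave signals of 797 and 1120 (log2 ratio 0.49) and of 192 and 302 (log2 ratio 0.65). All 3 were higher in SVEC4-10, by under 2-fold and by more than the error of 0.48. With the poly-A scaling the log2 ratio was 0.22 at the probe set that stands for the gene, which is smaller than the error, and -0.022 at the one with signals of 797 and 1120, so the direction depends on the scaling. The remaining probe set was under background on both arrays, at 10.6 and 6.02.

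Lamb2 (chromosome 9, 108479847 to 108490530) encodes a beta chain known from the kidney filter, the neuromuscular junction and vessel walls. It had signals of 198 in MS-1 and 217 in SVEC4-10, a log2 ratio of 0.13, well inside the error. The ratio was -0.38 when scaled to the poly-A controls, so its sign depends on the scaling. Lamb3 (chromosome 1, 193294353 to 193343878), which pairs with Lama3 in epidermis, had signals of 15.4 and 24.9. Its signals lay on either side of background, at least 1.53-fold higher in SVEC4-10, and it was not measured when background was doubled.

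Lamc1 (chromosome 1, 153218922 to 153332786) encodes the gamma chain shared by most laminins. Its first probe set had signals of 1199 in MS-1 and 412 in SVEC4-10, a log2 ratio of -1.54. The second had signals of 219 and 45.1, a log2 ratio of -2.28. Both probe sets were above background on both arrays and lower in SVEC4-10, by 3 or more times the error of 0.48. Of the 9955 genes whose representing probe set was above background on both arrays, 4.72% had a lower log2 ratio than Lamc1. Scaled to the poly-A controls, the log2 ratio was -2.05. Lamc3, a gamma chain outside the set, had signals of 32.2 and 29.3, a log2 ratio of -0.14.

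**Figure D3:**
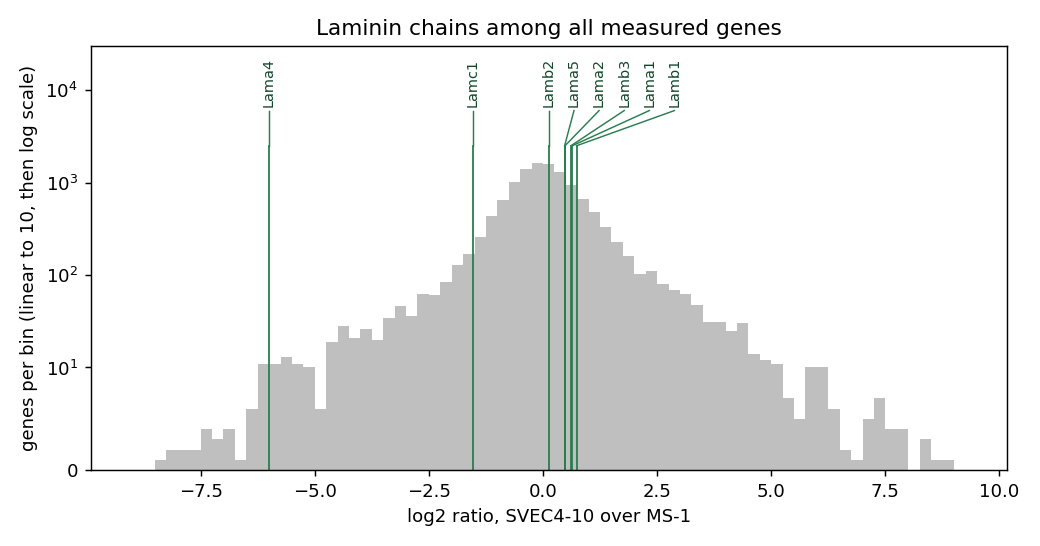
Number of genes per bin of 0.25 in log2 ratio (SVEC4-10 over MS-1) for the 12583 measured genes, on an axis that is linear to 10 and logarithmic above, with a green line at each of the 8 measured laminin chains. Lama4 (-6.01, a lower bound of the difference) lies in the left tail, Lamc1 at -1.54, and the other 6 lines between 0.13 and 0.74, of which those of Lama1, Lama2 and Lamb3 are lower bounds too.

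The median log2 ratio of the 8 measured chains was 0.48, against 0.02 over all measured genes, with Lama1, Lama2, Lama4 and Lamb3 entered at their bounds. The poly-A scaling gave -0.034 for the chains. It lowers every log2 ratio by 0.51, and so both medians alike. On the MS-1 array 5 of the 9 chains were above background, and in SVEC4-10 7 of 9. Over all genes on the array 63.5% were above background in MS-1 and 62% in SVEC4-10. The 4 chains above background on both arrays, as were 56.4% of all genes, were Lama5, Lamb1, Lamb2 and Lamc1, and 3 of these were under 2-fold apart, as were 76% of the 9955 genes whose representing probe set was above background on both.

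The chains of a trimer can also be compared through the difference of their log2 ratios, which no scaling factor between the arrays can change. The log2 ratio of Lamb1 exceeded that of Lamc1 by 2.28, a 4.84-fold shift between gamma and beta chain, where the error of such a difference was 0.68. Over the 6 pairings of a Lamb1 with a Lamc1 probe set the difference ran from 2.03 to 3.01. Lama5 stood apart from Lamc1 in the same way, by 2.01 (4 pairings, 1.72 to 2.75), and Lamb2 by 1.67 (2 pairings, 1.67 and 2.41). Lama5, Lamb1 and Lamb2 differed among each other by 0.61 or less by the probe sets that stand for them, within the error of a difference. The shift lay between Lamc1 and the other 3 chains above background on both arrays.

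RefSeq promoter sequences (GRCm38.p6, 250 bases before the start of transcription and 50 after it) are described for 5 of the 9 chains. Those of Lama5 and Lamb1, both above background on each array and under 2-fold apart, are shown with that of Lama2, which exceeded background in SVEC4-10 only. Each reads 5′ to 3′ on the strand of the gene, and capitals mark the GC box GGGCGG on either strand. They lie at chr2:180225810-180226109 (minus strand), chr12:31265043-31265342 (plus strand) and chr10:27616893-27617192 (minus strand). Each start is that of the promoter entry and need not be the outer end of the gene. The Lama2 window lies almost wholly inside the gene span given above, and the Lamb3 windows lie inside theirs.
Lama5: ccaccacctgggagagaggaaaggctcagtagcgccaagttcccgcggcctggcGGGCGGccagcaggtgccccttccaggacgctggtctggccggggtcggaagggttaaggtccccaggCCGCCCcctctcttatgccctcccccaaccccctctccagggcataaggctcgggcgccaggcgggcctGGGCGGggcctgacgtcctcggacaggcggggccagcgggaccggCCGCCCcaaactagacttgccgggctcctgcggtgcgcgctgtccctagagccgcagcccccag
Lamb1: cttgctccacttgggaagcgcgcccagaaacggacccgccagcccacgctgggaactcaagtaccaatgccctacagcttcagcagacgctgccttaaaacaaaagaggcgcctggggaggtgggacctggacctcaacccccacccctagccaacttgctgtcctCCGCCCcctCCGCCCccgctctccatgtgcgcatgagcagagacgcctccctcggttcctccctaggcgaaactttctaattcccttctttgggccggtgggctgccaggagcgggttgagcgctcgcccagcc
Lama2: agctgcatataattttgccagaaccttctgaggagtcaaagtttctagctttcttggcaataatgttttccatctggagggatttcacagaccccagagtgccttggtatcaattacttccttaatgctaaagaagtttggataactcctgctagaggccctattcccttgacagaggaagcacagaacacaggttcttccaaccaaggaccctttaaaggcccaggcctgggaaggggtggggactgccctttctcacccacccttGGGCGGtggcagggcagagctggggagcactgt
The Lama5 promoter had a GC content of 72.7% with 24 CpG dinucleotides and that of Lamb1 63.7% with 18. The Lama2 promoter had 50.3% with 1 CpG, against medians of 52.7% and 7 over 32851 promoters of the same length. GC boxes numbered 4, 2 and 1, and 35.7% of all promoters held at least 1. The Lamb2 promoter, with 44.0% GC, 4 CpG and 0 GC boxes, belonged to a chain that was under 2-fold apart as well. No promoter of Lama4 or Lamc1, the chains at least 2-fold apart, was among those described. Lama3 was left out of this description. A link between promoter and signal was not tested. Lamb3, like Lama2 above background in SVEC4-10 only, had promoters with 59.3% GC, 0 GC boxes and 2 or 5 CpG. Neither TATAAA nor its reverse complement occurred in the 6 promoters of the 5 chains, and 13.6% of all promoters held it. Among these 6 promoters the motif CCAAT, on either strand, occurred in that of Lamb1 alone, and it occurred in 37.4% of all promoters. A match of letters is a description and shows no binding.

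Genes that receive or anchor laminin differed in both directions. Of all 12583 measured genes, 12% were higher in MS-1 by 2-fold or more and 15% in SVEC4-10. These shares were not computed under the poly-A scaling, so list counts under that scaling have none beside them. Of 14 listed laminin receptors and their partners, 12 were measured, of which 5 were higher in MS-1 by 2-fold or more, 3 were higher in SVEC4-10 and 4 were closer, with a median log2 ratio of -0.48. Scaled to the poly-A controls, the counts were 5, 2 and 5. The 5 higher in MS-1 were Bcam and the integrin alpha subunits Itga1, Itga3, Itga6 and Itga7, while Itga2 was under background on both arrays (13.6 and 8.27). Itga6 had signals of 1445 in MS-1 and 232 in SVEC4-10, 6.22-fold lower on the latter, and its second probe set had a log2 ratio of -2.96. Itga7, known from muscle, had signals of 215 and 34.5, a 6.22-fold difference. Itga3 had signals of 1505 and 420, a 3.58-fold difference, with log2 ratios from -2.13 to -1.69 over 3 probe sets.

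Itgb1, the beta subunit that all of these alpha subunits pair with, was within 2-fold, with signals of 1804 and 1308 and a log2 ratio of -0.46, or -0.98 with the poly-A scaling. Itgb4, the other beta partner of Itga6, was under background on both arrays at 4.61 and 1.06. Bcam, a surface glycoprotein that binds the chain encoded by Lama5, had signals of 227 and 15.9, at least 12.9-fold higher in MS-1. Dag1, which encodes dystroglycan, went the other way, with signals of 655 and 2706, 4.13-fold higher in SVEC4-10, and all 4 of its probe sets were over 2-fold higher there. Sdc2, a heparan sulfate proteoglycan of the cell surface, had signals of 128 and 765, a 5.97-fold difference in the same direction. The probe sets of Sdc4 and Itga1 disagreed, from -0.25 to 3.44 and from -1.03 to 0.36 in log2 ratio. Rpsa has many near-identical copies in the genome, so its ratio of -0.20 is uncertain.

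Of 20 listed proteins that share the basement membrane with laminin, 15 were measured. By 2-fold or more, 6 of these were higher in SVEC4-10 and 2 in MS-1, against 15% and 12% of all measured genes. The remaining 7 were closer. The median log2 ratio of the 15 was 0.47, and the poly-A scaling gave -0.042 with counts of 5, 5 and 5. The nidogens, which bind the gamma chain encoded by Lamc1 and link laminin to collagen IV, differed in opposite directions. Nid1 had signals of 2145 in MS-1 and 150.4 in SVEC4-10, a 14.3-fold difference, and its other probe set gave a log2 ratio of -3.29. Nid2 had signals of 15.9 and 610, at least 37.5-fold higher in SVEC4-10. Nid1 thus lay on the side of Lama4 and Lamc1, and Nid2 on the opposite side, under each scaling.

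Agrn, which encodes agrin, a proteoglycan that binds laminin and dystroglycan, had signals of 43.1 and 672, 15.6-fold higher in SVEC4-10 by 1 probe set and with a log2 ratio of 1.04 by the other. Fbln2, a fibulin that also binds laminin, was at least 177-fold higher there, with signals of 7.75 and 2878. The main collagen IV chains were closer, Col4a1 with signals of 4955 and 4081 and a log2 ratio of -0.28, and Col4a2 with 2976 and 1837 and a log2 ratio of -0.70. The minor chains Col4a5 (197 and 1757) and Col4a6 (21.6 and 219) were 8.91- and 10.1-fold higher in SVEC4-10. Hspg2, the proteoglycan perlecan, had signals of 205 and 117 and a log2 ratio of -0.80, or -1.31 with the poly-A scaling.

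**Figure D4:**
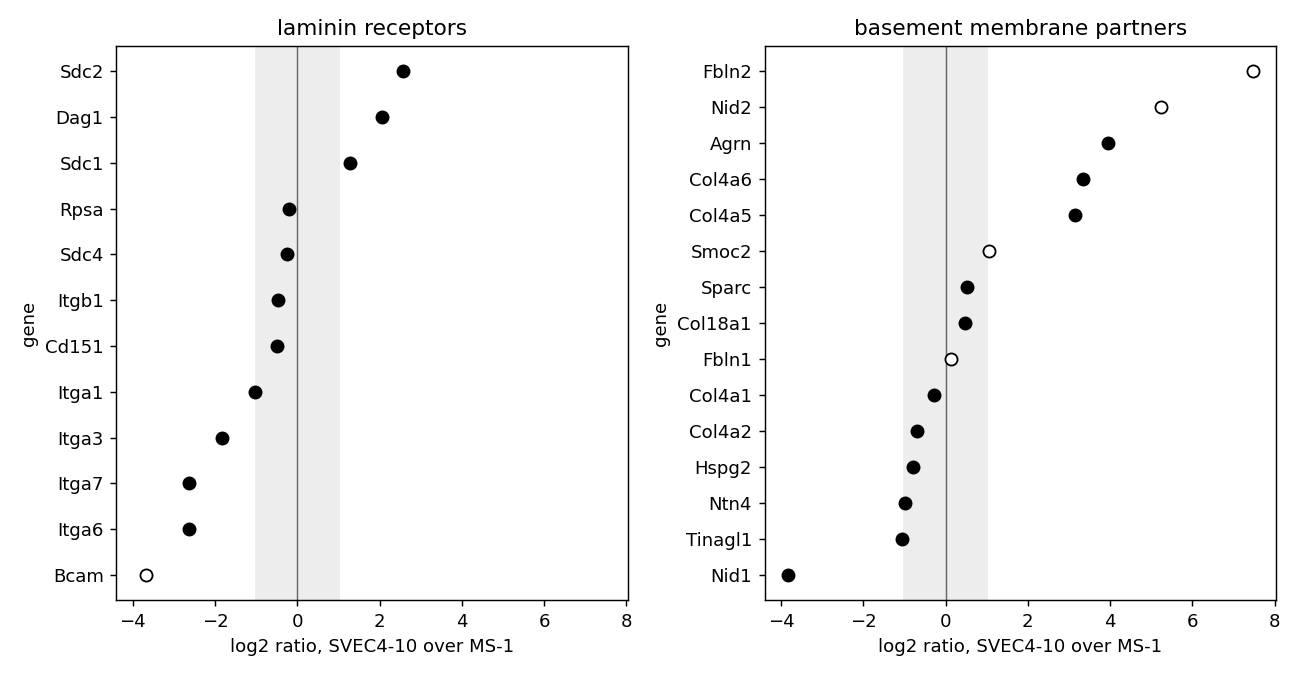
Log2 ratio (SVEC4-10 over MS-1) of the 12 measured laminin receptors (left) and the 15 measured basement membrane partners (right), 1 point per gene. Open points have 1 array at background and are lower bounds of the difference, and the grey band covers ratios under 2-fold, with Bcam, Itga6, Itga7 and Nid1 on the MS-1 side and Sdc2, Dag1, Nid2 and Fbln2 on the SVEC4-10 side.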

How the data were processed

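Total RNA (6 µg) was extracted with Trizol, labelled with biotin as cRNA and put on Affymetrix arrays, as the labels' protocols state. The authors deposited 1 linear intensity per probe set and array, and their summary method was not given in the sources used here. After trimming 2% from each end, the mean was 150.001 for each array, and no further scaling was applied. Of 45101 probe sets, 34945 had 1 gene in the platform annotation, 932 had several and were left out, 9160 were unnamed here and 64 were controls. Gene identifiers linked 34741 of those with 1 gene to current RefSeq symbols (GRCm38.p6).

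Values were raised to background before log2 ratios were taken with NumPy 2.4.6 and pandas 2.3.3 in Python 3.11.15. A gene was represented by its measured probe set of highest mean log2 signal, avoiding the less specific classes (_x_at, _s_at and _a_at) where another was measured. Apart meant at least 2-fold, since 1 array per line allows no test, and the number of arrays limits the precision. The steps were tested on data simulated from the MS-1 array, in which only genes of high signal were changed. Ratios near background were not tested in this way. Named were all members, the genes of each list at least 4-fold apart (up to 6), the brightest cell markers (up to 3 a list), and 9 fixed partners. Lamc3, Rpsa, Itga2 and some of the genes whose probe sets disagreed were named after their values were seen. Other listed genes with such disagreement were not named. The members and lists were chosen with earlier results of these data known. No likeness between genes was computed, because 2 arrays give 1 ratio per gene. The 3'/5' control ratios in MS-1 and SVEC4-10 were 0.809 and 0.812 (Gapdh) and 1.22 and 1.27 (Actb). The alternatives were other scalings, background levels, probe set choices and a 4-fold threshold.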

Additional observations from a re-analysis of the deposited data

How the results depend on the processing

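No paired analysis was possible because each line has 1 array, so the groups share only 1 replicate number. Of 115 recomputed values, 93 moved by less than the error of 0.48 (or, for counts, by at most 1.5 times), and 22 moved further. None of the chains at least 2-fold apart changed direction in any alternative. Scaling to the poly-A controls gave log2 ratios of 0.13 for Lama1, -0.030 for Lama2, -6.52 for Lama4, -0.039 for Lama5, 0.22 for Lamb1, -0.38 for Lamb2, 0.10 for Lamb3 and -2.05 for Lamc1, and a median of -0.034. The values of Lama1, Lama2, Lama4 and Lamb3 are bounds, since 1 array was under background. All the shifts follow from the scaling, which lowers every ratio by 0.51. The log2 ratio of Lama4 was -6.64 with background at the array-wide 40th percentile, -5.01 with background doubled, -9.51 without a floor, -5.05 as the mean over probe sets and -4.10 by the probe set of smallest ratio. The ratio of Lama1 was 1.13 and that of Lama2 0.97 with background at the 40th percentile, and 3.99 and 3.53 without a floor. The count of chains at least 2-fold higher on SVEC4-10 was then 1 and 2 in place of 0. With background doubled, 4 chains in place of 7 were above it on the SVEC4-10 array, and Lama1, Lama2 and Lamb3 gave no ratio. Lamb3 also gave none without the less specific probe sets. At a 4-fold threshold 1 chain in place of 2 was higher on MS-1. Signals near background limit what can be said of Lama1, Lama2, Lama3 and Lamb3.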

Other observations

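Of 14 listed members of the complex that ties dystroglycan to the cytoskeleton, 12 were measured. By 2-fold or more, 4 were higher in SVEC4-10 and 2 in MS-1, against 15% and 12% of all measured genes. A further 6 were closer, and the median log2 ratio of the 12 was 0.09. Under the poly-A scaling, which lowers every log2 ratio by 0.51, 2 were higher in SVEC4-10, 4 in MS-1 and 6 closer (median -0.43). Shares over all genes were not computed under that scaling. Probe sets disagreed for 2 of the genes counted higher in SVEC4-10 before that scaling. The log2 ratio ran from -0.11 to 1.29 for Sgcb and from -0.68 to 1.40 for Sntb1. Sspn, which encodes sarcospan, had signals of 3.04 and 89.2, at least 5.48-fold higher in SVEC4-10. Of 12 measured genes of 18 listed for the laminin-binding sugar of dystroglycan, 1 was higher in each line and 10 were closer (median 0.28). With the poly-A scaling, 1 was higher in SVEC4-10, 3 in MS-1 and 8 were closer (median -0.23).

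Of 7 measured matrix proteases of 13 listed, 3 were higher in SVEC4-10 and 2 in MS-1 by 2-fold or more (median 0.38). The shares over all measured genes were 15% and 12%. With the poly-A scaling, 2 of these proteases were higher in SVEC4-10 and 2 in MS-1 (median -0.13). Mmp13 had signals of 9.68 and 1028 and Mmp3 of 16.0 and 830, differences of at least 63.1- and 51.0-fold towards SVEC4-10. Of 15 measured genes of folding and secretion, 12 were within 2-fold. By 2-fold or more, 2 were higher in SVEC4-10 and 1 in MS-1 (median 0.03), against 15% and 12% of all measured genes. Under the poly-A scaling, which lowers every log2 ratio by 0.51, 1 was higher in SVEC4-10, 4 in MS-1 and 10 were closer (median -0.49). Shares over all genes were not computed under that scaling. Canx, the gene higher in MS-1 before that scaling, had log2 ratios from -1.44 to -0.08 over 3 probe sets. Creb3l1, a transcription factor that controls secretory genes, had signals of 3.45 and 270.4 and was at least 16.6-fold higher in SVEC4-10.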
